A study of Mus musculus with 8 samples.

Results

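Crystals of calcium phosphate form in bone matrix where phosphate is plentiful and inorganic pyrophosphate, which coats and blocks growing crystals, is scarce. The 9 genes described here set that balance in osteoblasts: Enpp1 and Ank supply pyrophosphate outside the cell, Alpl destroys it, Smpd3 releases phosphocholine from membranes, Phospho1 frees phosphate from it inside matrix vesicles, Slc20a1 and Slc20a2 carry phosphate into the cell, Fam20c phosphorylates secreted matrix proteins, and Phex is a membrane protease that protects mineralisation. They were chosen by name for these roles, with earlier results of these data known, from 55335 gene identifiers in all. Matching the identifiers to the GENCODE annotation of GRCm38 found all 9, of which 7 reached 1 FPKM (fragments scaled to transcript length and library size) in at least 4 of the 8 libraries and were tested among 11280 genes.

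RNA was sequenced from MC3T3-E1, a mouse pre-osteoblast line first taken from calvaria, after 3 days with TABS (the Trio-Active bone scaffold, 4 libraries) or with HA (hydroxyapatite made with added magnesium, 4 libraries). Every library came from cells grown with a scaffold, so a difference is TABS relative to HA and could lie with either. Whether the replicates came from separate cultures is not in the labels, so a p-value here measures only how these 8 libraries spread, and that spread may be technical. The column names carry the letters H for TABS and L for HA, and no gene in the table checks which scaffold a library was grown on.

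In outline, Ank and Fam20c rose on TABS and Alpl fell, while Phospho1, Smpd3, Slc20a1 and Slc20a2 did not pass the test. Phex and Enpp1 lay under the filter on low values. Genes were compared with limma on log2(FPKM + 1), where adjusted p is Benjamini-Hochberg adjusted over all 11280 genes and the threshold is 0.05. Of all tested genes 7.38% passed, 4.49% higher and 2.90% lower on TABS. Of the 7 tested genes, 2 were higher, 1 was lower and 4 did not pass. The same 3 were the tested members whose libraries did not overlap between groups, which held for 18.0% of all tested genes (10.8% with TABS above and 7.15% with TABS below). Alpl is in both counts and reached 1 FPKM only in its HA libraries, so it was tested through the group where it was high. The median log2 fold change of the 7 tested members was -0.02, against 0.01 over all tested genes. The 9 genes were chosen with earlier results of these data known, so this count describes them and supports nothing further.

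Pyrophosphate outside the cell has a source and an exit route, and the starts of the genes at either end of its path are shown because Ank and Alpl moved in opposite directions. The 250 bases before each RefSeq start are printed 5′ to 3′ on the strand of the gene (GRCm38.p6), with matches to GGGCGG (the GC box) and TATAAA, on either strand, in capitals.
Ank, chr15:27466427-27466676, plus strand: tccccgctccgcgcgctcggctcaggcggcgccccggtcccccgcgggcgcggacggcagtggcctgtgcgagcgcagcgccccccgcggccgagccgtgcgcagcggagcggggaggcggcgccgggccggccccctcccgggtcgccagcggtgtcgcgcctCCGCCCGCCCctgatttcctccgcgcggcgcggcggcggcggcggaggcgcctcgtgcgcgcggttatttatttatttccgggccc
Alpl, upstream start, chr4:137796385-137796634, minus strand: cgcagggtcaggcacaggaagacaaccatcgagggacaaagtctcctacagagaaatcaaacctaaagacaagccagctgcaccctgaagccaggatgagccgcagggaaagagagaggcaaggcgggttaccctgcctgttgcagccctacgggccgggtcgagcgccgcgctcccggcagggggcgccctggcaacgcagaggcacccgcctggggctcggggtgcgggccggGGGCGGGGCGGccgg
Alpl, downstream start, chr4:137766476-137766725, minus strand: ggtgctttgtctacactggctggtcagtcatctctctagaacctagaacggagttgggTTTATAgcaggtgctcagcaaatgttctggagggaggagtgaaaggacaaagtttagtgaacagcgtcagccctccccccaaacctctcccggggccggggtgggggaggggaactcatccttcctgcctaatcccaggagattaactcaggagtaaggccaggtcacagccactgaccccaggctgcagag
The stretch before Ank was 81.2% G and C with 49 CpG pairs, against medians of 52.4% and 6 over 32851 promoters in the table. That before the upstream start of Alpl was 68.4% G and C with 20 CpG pairs, and that before the downstream start 56.0% with 4. GGGCGG or its complement was found 2 times before Ank, 86 and 82 bases from the start and overlapping, and 2 times before the upstream Alpl start, 15 and 10 bases away and overlapping. It was found in 32.7% of all promoters, so its presence is common. TATAAA was found only before the downstream Alpl start among these 3 stretches, 192 bases away, and in 12.4% of all promoters. The motifs TGANTCA (AP-1, in 6.75% of all promoters) and TGTGGT (RUNX, 14.0%) were in none of the 3. CANNTG, the E-box, was found 0 times before Ank, 1 time before the upstream and 2 times before the downstream Alpl start, and in 66.2% of all promoters. The matches are descriptions of the letters and not of binding. FPKM values were deposited per gene, so the use of the 2 Alpl starts, of which the upstream one is known as the start used in bone, was not measured.

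Ank, a multipass membrane protein through which cells raise extracellular pyrophosphate, was by far the most abundant of the 9 transcripts. It stood at 184, 178, 192 and 175 FPKM in TABS 1 to 4, against 107, 124, 129 and 119 FPKM in HA 1 to 4. All TABS libraries lay above all HA libraries, and HA 1 was the lowest of the 8. Mean levels were 182.1 ± 7.5 FPKM in TABS and 119.7 ± 9.69 FPKM in HA (SD, n = 4 each), a ratio of 1.52. The log2 fold change was 0.60 ± 0.06 (SE, 95% interval 0.46 to 0.75, limma adjusted p = 0.000987), with 44 of 11280 tested genes, Ank included, at or above it. Ank (ENSMUSG00000022265, plus strand) lies on chromosome 15 from 27466677 to 27594909. Its exons share 65 bases with the microRNA gene Mir7117, which was listed at no more than 0.0094 FPKM.

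Enpp1, the ectoenzyme that makes pyrophosphate from extracellular ATP, was almost undetected. Its values were 0.0054, 0.0079, 0.0044 and 0.0040 FPKM in TABS, against 0, 0.0046, 0 and 0.0075 FPKM in HA. The groups overlapped at a level that stands for about 1 fragment in a library, if the smallest regular step seen in low values is 1 fragment. On that footing the 8 libraries had 18.2 to 26.1 fragments for each FPKM in a transcript of 1 kilobase. A difference in Enpp1 was therefore not detectable at this depth. Abcc6, an ATP-release transporter known to feed the same enzyme in liver, was listed at no more than 0.0193 FPKM in TABS and 0.0311 FPKM in HA.

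Alpl, tissue-nonspecific alkaline phosphatase, splits pyrophosphate into phosphate and is a classic marker of the mineralising osteoblast. It stood at 0.373, 0.518, 0.471 and 0.489 FPKM in TABS 1 to 4, against 1.80, 1.13, 1.32 and 1.17 FPKM in HA 1 to 4. All TABS libraries lay below all HA libraries, and the highest HA value, that of HA 1, came from the library with the lowest Ank. Means were 0.463 ± 0.063 FPKM in TABS and 1.36 ± 0.306 FPKM in HA (SD, n = 4 each), so FPKM was 2.93-fold lower in TABS. The log2 fold change was -0.68 ± 0.09 (SE, 95% interval -0.88 to -0.48, limma adjusted p = 0.00267), on a scale that shrinks changes at low FPKM. With a pseudocount of 0.1 it was -1.36, and after rescaling all libraries to 1 common total (TPM) it was -1.07, both past the threshold. TPM values were larger than FPKM here, so the added 1 shrank changes less in TPM. Rescaled to a common total without mitochondrial genes, on the FPKM scale, the Alpl log2 fold change was -0.67. Alpl passed the filter through its HA libraries, all 4 of which reached 1 FPKM, against 0 of 4 in TABS. Without any filter its adjusted p was 0.0147. By the implied depth, a rough guide only, the values would rest on about 17 to 32 fragments per library in TABS and 61 to 114 in HA. That guide uses the longest annotated transcript, and the length behind the deposited FPKM is not known. Alpl (ENSMUSG00000028766) lies on chromosome 4 from 137741733 to 137796384, on the minus strand.

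**Figure D1:**
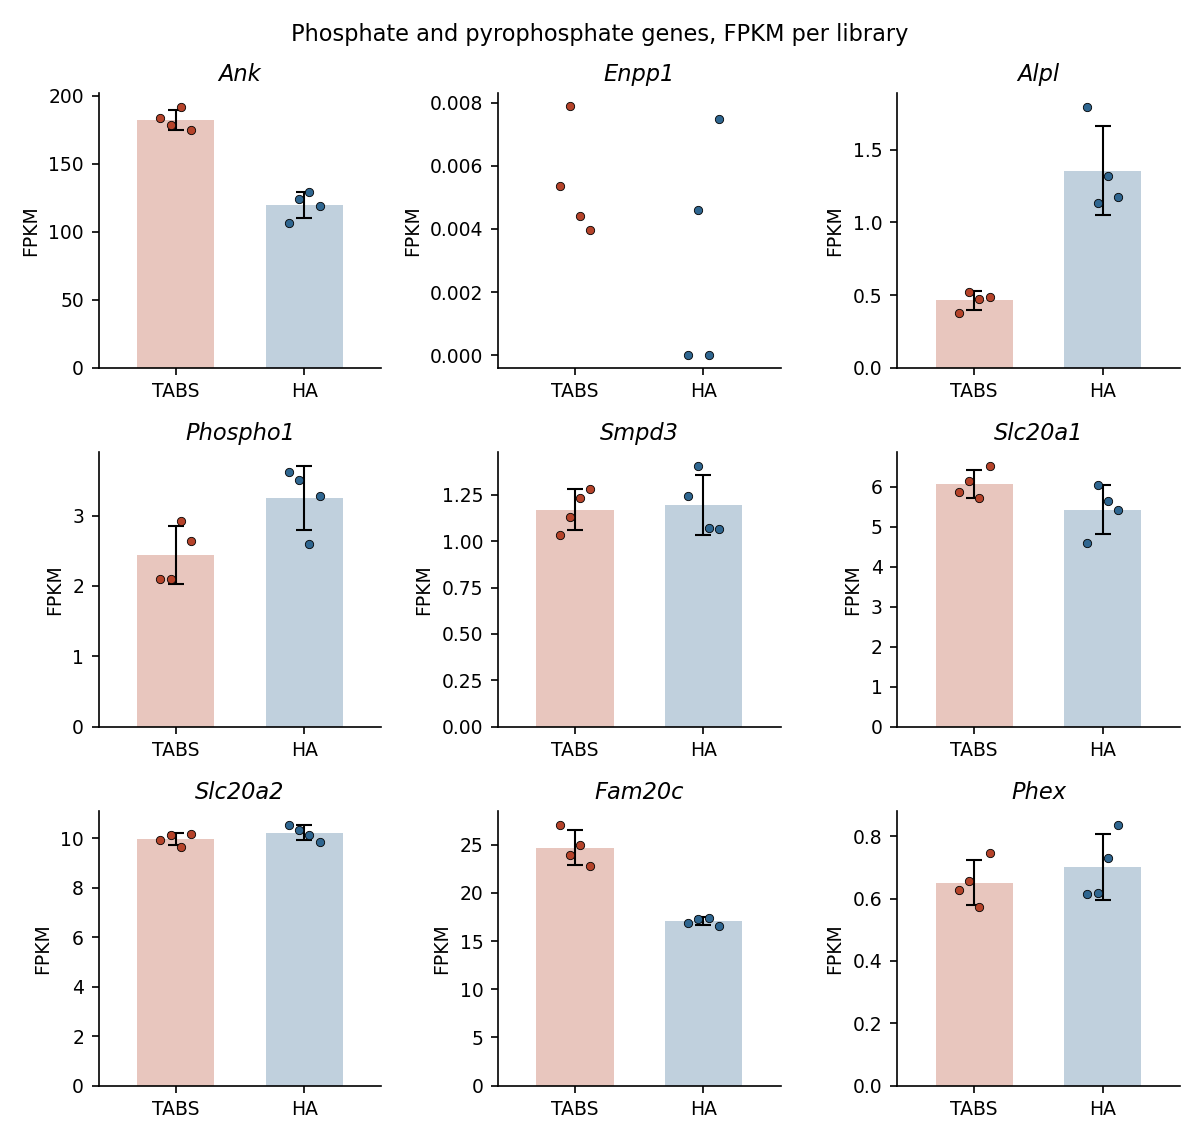
FPKM of the 9 genes in each library (points), with the mean (bar) and SD (line) of 4 TABS and 4 HA libraries, each panel on its own linear axis. Enpp1 is drawn as points only because 2 HA libraries are listed at 0. Ank and Fam20c are higher in all TABS libraries, Alpl is lower in all TABS libraries, and the other panels overlap between groups.

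The opposite movement of Ank and Alpl changed their ratio in each library. Ank stood at 492, 345, 407 and 357 times the FPKM of Alpl in TABS 1 to 4, against 59.3, 109.8, 97.8 and 101 times in HA 1 to 4. The lowest TABS ratio was above the highest HA ratio, and the mean ratio was 400.2 ± 67.0 in TABS and 92.0 ± 22.4 in HA (SD, n = 4 each). This ratio was chosen with the movements of both genes known and is given with no test. Transcript levels are not activities, and extracellular pyrophosphate was not measured.

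Phospho1, a soluble phosphatase that frees phosphate from phosphocholine and phosphoethanolamine inside matrix vesicles, did not pass the test. It stood at 2.09, 2.11, 2.93 and 2.64 FPKM in TABS, against 3.62, 3.51, 2.60 and 3.28 FPKM in HA. TABS 3 and TABS 4 lay above HA 3, so the groups overlapped. Means were 2.44 ± 0.413 FPKM in TABS and 3.25 ± 0.459 FPKM in HA (SD, n = 4 each). The log2 fold change was -0.31 ± 0.10 (SE, 95% interval -0.54 to -0.07, limma adjusted p = 0.109), and adjusted p lay between 0.0515 and 0.264 over the alternatives. Phospho1 (ENSMUSG00000050860, chromosome 11 from 95824499 to 95832140) shares 1818 exon bases with Zfp652 on the same strand and 1708 with Abi3 on the other, against a longest Phospho1 transcript of 1910 bases. Zfp652 stood at 3.54 ± 0.186 FPKM in TABS and 3.47 ± 0.0986 FPKM in HA (log2 fold change 0.02, limma adjusted p = 0.802), so the level of Phospho1 itself is uncertain. Phospho1 stood at 4.07 to 6.21 times the FPKM of Alpl in TABS and at 1.96 to 3.10 times in HA. This ratio was not planned, is given with no test, and shares the uncertainty in the level of Phospho1.

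Smpd3, the neutral sphingomyelinase whose loss leaves bone poorly mineralised in mice, releases phosphocholine from membranes. It stood at 1.03, 1.13, 1.23 and 1.28 FPKM in TABS, against 1.24, 1.41, 1.07 and 1.07 FPKM in HA. The groups covered nearly the same range, with HA 2 the highest library. Its log2 fold change was -0.02 ± 0.07 (SE, 95% interval -0.17 to 0.13, limma adjusted p = 0.911). Smpd3 (ENSMUSG00000031906, chromosome 8 from 106252548 to 106337988) shares 247 exon bases with Prmt7 on the opposite strand. Prmt7 stood at 6.89 ± 0.216 FPKM in TABS and 7.11 ± 0.352 FPKM in HA, and whether counting used strand is not known.

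Slc20a1 and Slc20a2 encode PiT-1 and PiT-2, the paired sodium-coupled carriers that bring phosphate into cells. Slc20a2 stood at 9.94, 10.1, 9.63 and 10.2 FPKM in TABS, against 10.5, 10.3, 10.1 and 9.85 FPKM in HA. The groups overlapped, and the 8 values lay close together. Slc20a2 had a log2 fold change of -0.03 ± 0.04 (SE, 95% interval -0.12 to 0.06, limma adjusted p = 0.659). Slc20a1 stood at 5.86, 6.14, 5.73 and 6.53 FPKM in TABS, against 4.59, 6.05, 5.65 and 5.42 FPKM in HA. HA 1 was the lowest of the 8 libraries, and the groups overlapped through HA 2. For Slc20a1 the log2 fold change was 0.14 ± 0.07 (SE, 95% interval -0.03 to 0.31, limma adjusted p = 0.285), and without HA 1 it was 0.07 with adjusted p = 0.449. Slc20a2 was the more abundant carrier in every library. Slc20a1 reached 0.590, 0.607, 0.595 and 0.642 times its FPKM in TABS, against 0.435, 0.585, 0.558 and 0.550 times in HA. The lowest TABS ratio, 0.590, exceeded the highest HA ratio, 0.585, by a small margin, and the ratio was not tested. The 2 carriers together held 15.4 to 16.7 FPKM in TABS and 15.1 to 16.4 in HA.

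Slc20a1 (ENSMUSG00000027397) lies on chromosome 2 from 129198764 to 129211616 and Slc20a2 (ENSMUSG00000037656) on chromosome 8 from 22476788 to 22569612. Slc20a1 shares 452 exon bases with 9830144P21Rik, at no more than 0.179 FPKM, and 280 with Gm4430, at 2.22 to 3.18 FPKM. Slc20a2 shares 95 with Smim19. Xpr1, the exporter that lets phosphate out of the cell, did not pass: it stood at 2.10 ± 0.0847 FPKM in TABS and 2.09 ± 0.140 FPKM in HA (log2 fold change 0.00, 95% interval -0.11 to 0.12, limma adjusted p = 0.968).

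**Figure D2:**
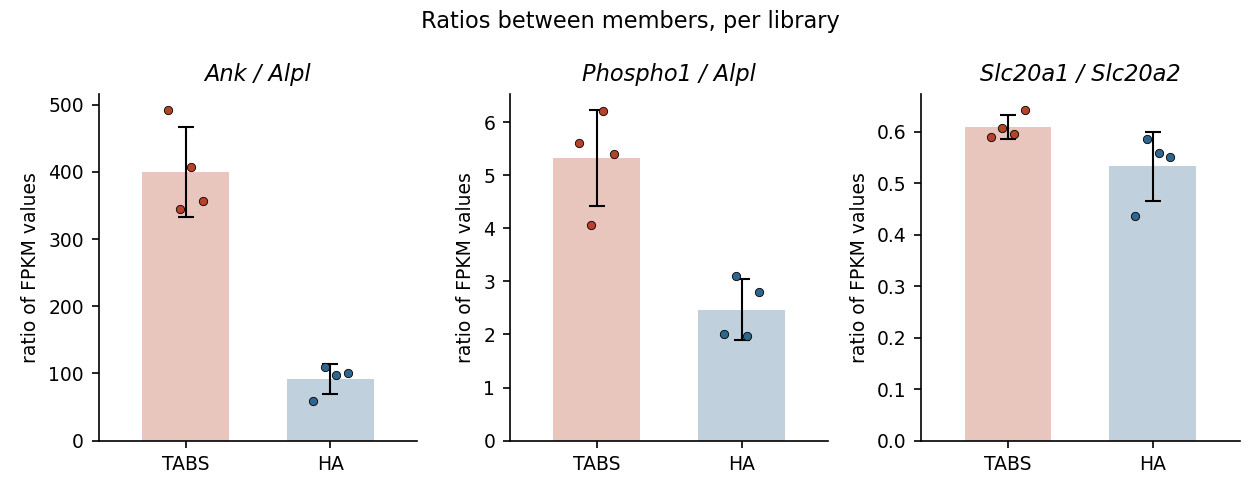
Ratios between FPKM values of member genes in each library (points), with the mean (bar) and SD (line) of 4 TABS and 4 HA libraries. In TABS the ratio of Ank to Alpl is 345 to 492, against 59.3 to 109.8 in HA. That of Phospho1 to Alpl is 4.07 to 6.21 in TABS and 1.96 to 3.10 in HA, and that of Slc20a1 to Slc20a2 is 0.590 to 0.642 in TABS and 0.435 to 0.585 in HA. The ratios are shown with no test.

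Fam20c, the Golgi kinase that phosphorylates secreted proteins such as osteopontin and Dmp1 before export, rose on TABS. It stood at 27.1, 24.0, 25.0 and 22.8 FPKM in TABS, against 16.9, 17.3, 17.4 and 16.6 FPKM in HA. All TABS libraries lay above all HA libraries, with TABS 1 the highest and the HA libraries close together. Means were 24.7 ± 1.83 FPKM in TABS and 17.1 ± 0.399 FPKM in HA (SD, n = 4 each), a ratio of 1.45. The log2 fold change was 0.51 ± 0.05 (SE, 95% interval 0.39 to 0.63, limma adjusted p = 0.00103), with 82 of 11280 genes, Fam20c included, at or above it. Without TABS 1 it was 0.46 with adjusted p = 0.00321. Fam20c (ENSMUSG00000025854) lies on chromosome 5 from 138754514 to 138810077, and its exons overlap those of no other annotated gene.

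Phex, a membrane endopeptidase whose loss causes X-linked hypophosphataemia, stayed below 1 FPKM in every library. It stood at 0.629, 0.656, 0.572 and 0.748 FPKM in TABS, against 0.613, 0.619, 0.730 and 0.837 FPKM in HA. The groups overlapped over most of their range. In the fit without a filter, where 1.92% of 28201 genes passed (1.23% higher and 0.691% lower), the log2 fold change of Phex was -0.04 (95% interval -0.18 to 0.10, limma adjusted p = 0.79). Phex (ENSMUSG00000057457) lies on chromosome X from 157162075 to 157415312.

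**Figure D3:**
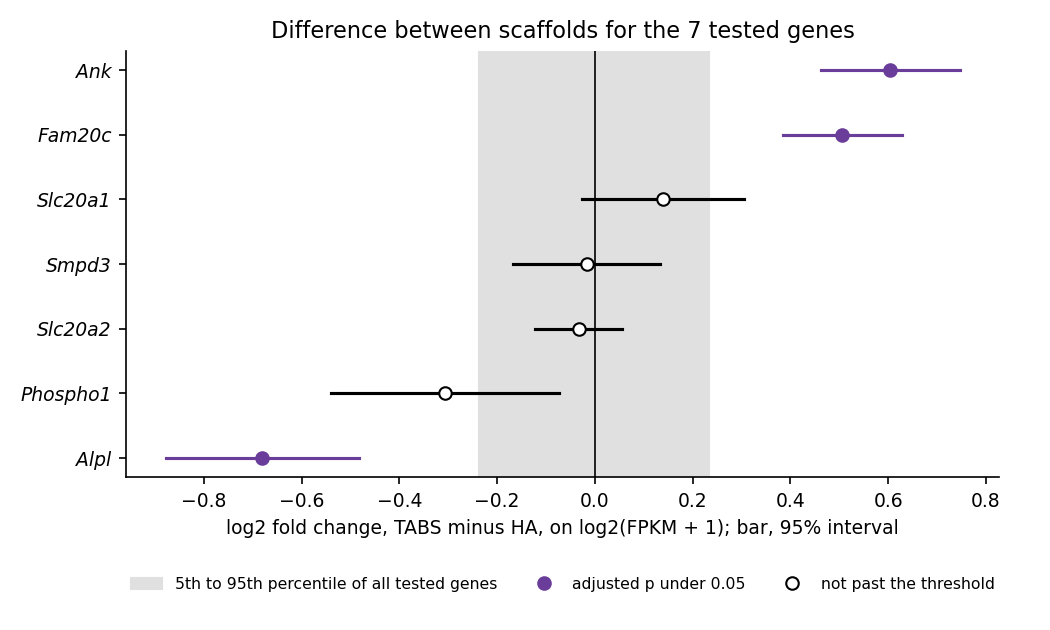
Log2 fold change on log2(FPKM + 1), TABS minus HA, of the 7 tested genes with 95% intervals from limma, against the 5th to 95th percentile of all 11280 tested genes (grey, -0.24 to 0.23). Ank (0.60) and Fam20c (0.51) lie right of the band and Alpl (-0.68) left of it, with filled symbols for adjusted p under 0.05.

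Set in order of FPKM, which is per length, the 9 genes ran Ank, Fam20c, Slc20a2, Slc20a1, Phospho1, Smpd3, Phex, Alpl and Enpp1 in TABS. In HA the first 5 came in the same order, followed by Alpl, Smpd3, Phex and Enpp1. No neighbours overlapped in TABS. In HA the ranges of Alpl and Smpd3 overlapped, with Alpl the higher in 3 of 4 libraries. Alpl was thus the 6th gene in HA and the 8th in TABS, below Phex in all 4 TABS libraries. Ank alone held 79.6% to 80.8% of the summed FPKM of the 9 genes in TABS and 73.1% to 76.8% in HA. Among all tested genes by mean FPKM, Ank stood at the 98.1st percentile in TABS and the 96.9th in HA, and Fam20c at the 83.0th and the 75.8th. Slc20a2 stood at the 61.0th and 61.9th, and Slc20a1 at the 45.7th and 42.1st.

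Other genes of the pathway were taken from lists made for their roles. Among genes of pyrophosphate and extracellular nucleotides, 7 of 14 were tested (median log2 fold change -0.04). Of the 7, 2 rose and 1 fell, against 4.49% and 2.90% of all tested genes. Nt5e, the CD73 ectoenzyme that turns AMP into adenosine and phosphate, stood at 7.12, 7.05, 7.23 and 6.37 FPKM in TABS, against 4.65, 4.72, 4.72 and 5.79 FPKM in HA. Its groups did not overlap, with HA 4 apart from the other HA libraries, and it rose by a log2 fold change of 0.42 ± 0.07 (SE, limma adjusted p = 0.00854). Slc29a1, an equilibrative transporter of adenosine, averaged 59.3 ± 2.05 FPKM in TABS and 43.6 ± 5.05 FPKM in HA (SD, n = 4 each, 0.44 ± 0.08, adjusted p = 0.0104). Panx3, an osteoblast channel that releases ATP, fell to 0.854, 1.16, 1.02 and 1.10 FPKM in TABS, against 1.96, 1.87, 1.87 and 1.95 FPKM in HA (-0.52 ± 0.06, adjusted p = 0.00122). Its groups were well apart. Ppa1, the main soluble inorganic pyrophosphatase inside the cell, averaged 21.7 ± 0.982 FPKM in TABS and 22.3 ± 0.938 FPKM in HA and did not pass (-0.04, adjusted p = 0.639). When the fit was blocked on replicate number, adjusted p was 0.065 for Nt5e and 0.0581 for Slc29a1.

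Among genes of phosphate transport and sensing, 9 of 15 were tested (median 0.04). Of the 9, 1 rose and 1 fell, against 4.49% and 2.90% of all tested genes. Pth1r, the parathyroid hormone receptor, fell to 0.917 ± 0.0367 FPKM in TABS, against 2.06 ± 0.197 in HA (-0.67 ± 0.06, limma adjusted p = 0.000513), and like Alpl it passed the filter through its HA libraries. Fgfr1, a receptor for FGF23 in the presence of klotho, averaged 41.5 ± 0.509 FPKM in TABS and 35.4 ± 0.564 FPKM in HA (0.22 ± 0.03, adjusted p = 0.00557, and 0.0648 with the replicate block). Slc25a3, the mitochondrial phosphate carrier and the most abundant gene of the list, averaged 113 ± 4.44 FPKM in TABS and 108 ± 2.59 FPKM in HA (0.07, adjusted p = 0.377). Fgf23 and Slc34a1 were listed at 0 in all 8 libraries, and Kl, which encodes klotho, at no more than 0.00509 FPKM.

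Fam20c has 2 close relatives, Pkdcc and a set of secreted substrates on its list, and 6 of these 8 genes were tested (median 0.00). Of the 6, 2 were higher and 1 lower, against 4.49% and 2.90% of all tested genes. Dmp1, an acidic phosphoprotein of osteocytes, stood at 31.7, 29.5, 34.1 and 31.0 FPKM in TABS, against 15.8, 15.9, 20.9 and 17.7 FPKM in HA (0.82 ± 0.09, limma adjusted p = 0.000999). Ibsp, bone sialoprotein, stood at 12.8, 14.5, 14.7 and 16.0 FPKM in TABS, against 55.2, 48.9, 46.8 and 50.2 FPKM in HA (-1.73 ± 0.07, adjusted p = 1.51e-05). The libraries of each gene parted by group, in opposite directions. Spp1, osteopontin, averaged 3305 ± 239 FPKM in TABS and 2431 ± 259 FPKM in HA (0.45 ± 0.09, adjusted p = 0.0207). Its adjusted p was 0.0633 without TABS 1, 0.0584 without TABS 2, 0.057 without HA 2, 0.164 with no filter and 0.103 with the replicate block. Fam20a, the pseudokinase partner of Fam20c in enamel, did not pass at 2.91 ± 0.0623 FPKM in TABS and 3.45 ± 0.391 FPKM in HA (-0.18, adjusted p = 0.118, and 0.0262 with the GC and length correction), though its groups did not overlap.

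Of the genes of choline phospholipids, sphingomyelin and matrix vesicles, 14 of 15 were tested (median -0.01). By limma 2 rose and 0 fell, against 4.49% and 2.90% of all tested genes, with 0 lower at an unadjusted p under 0.05. Anxa5, a calcium-binding annexin abundant in matrix vesicles, averaged 789 ± 16.0 FPKM in TABS and 628 ± 44.6 FPKM in HA (0.33 ± 0.06, limma adjusted p = 0.0107, and 0.0589 with the replicate block). Sphk1, a sphingosine kinase downstream of sphingomyelin breakdown, averaged 70.2 ± 3.09 FPKM in TABS and 58.1 ± 3.19 FPKM in HA (0.27 ± 0.05, adjusted p = 0.0156, and 0.0818 with the replicate block). The relatives of Smpd3 did not pass: acid sphingomyelinase Smpd1 had a log2 fold change of 0.14 (adjusted p = 0.171), Smpd2 of -0.02 (0.89) and Smpd4 of 0.06 (0.486). The choline kinase genes Chka and Chkb, which make phosphocholine, likewise did not pass (-0.04 and -0.01, adjusted p = 0.612 and 0.943). Among relatives and partners of alkaline phosphatase, 6 of 11 were tested (median 0.01). Of the 6, 0 passed by limma's adjusted p, against 7.38% of all tested genes, with 0 at an unadjusted p under 0.05. These 6 include the zinc carrier genes Slc30a5, Slc30a6 and Slc30a7, which load the enzyme with zinc, and the genes of its lipid anchor, led by Pigt at 38.0 ± 2.77 FPKM in TABS and 35.7 ± 2.77 FPKM in HA. The intestinal alkaline phosphatase genes Alpi and Akp3 were listed at 0 in every library.

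**Figure D4:**
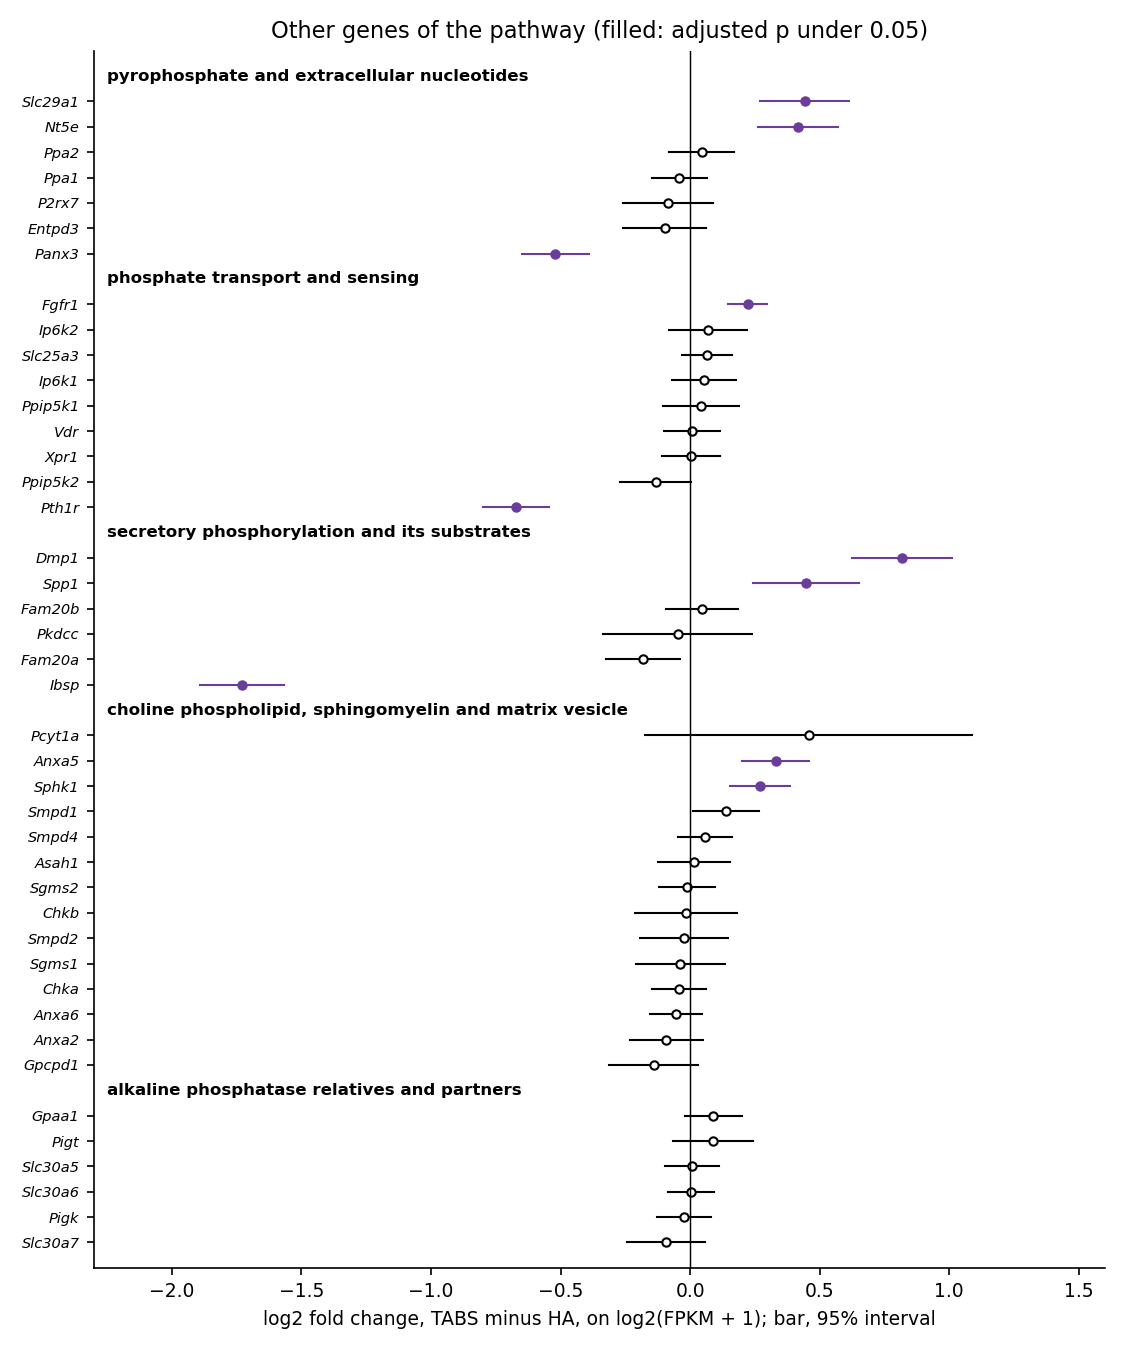
Log2 fold change on log2(FPKM + 1), TABS minus HA, with 95% intervals from limma, for the tested genes of the 5 other lists (n = 4 libraries a group). Filled symbols passed an adjusted p of 0.05: Slc29a1, Nt5e, Fgfr1, Dmp1, Spp1, Anxa5 and Sphk1 on the right, and Panx3, Pth1r and Ibsp on the left.

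The genes whose profile over the 8 libraries came nearest to a called member were found by the root mean square difference of log2(FPKM + 1) values centred on each gene's mean. Nearest to Ank were Jun, an AP-1 subunit (0.048 log2 units), Tcim (0.070) and Slc6a6, the taurine transporter (0.072). Nearest to Fam20c were Slc6a6 again (0.035), Spry1, a feedback inhibitor of receptor tyrosine kinase signalling (0.051), and Loxl1, a collagen and elastin crosslinking enzyme (0.059). Nearest to Alpl were Krt14, a keratin (0.055), Pcolce2, an enhancer of procollagen cleavage (0.074), and Ramp2, a partner of calcitonin-family receptors (0.086). A gene near a called member in this measure differs between the groups by a like amount, so the groups fix most of the likeness.

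Osteoblast markers were present in every library, but Bglap was low, at 0.974 to 1.52 FPKM in TABS and 1.25 to 2.06 FPKM in HA. Bglap and Col1a2 did not pass (limma adjusted p = 0.233 and 0.0966). Of 6 markers 3 fell (Sp7, Col1a1 and Ibsp, the last also on the list of substrates), against 2.90% of all tested genes, and the 6 summed to between 1549 and 1678 FPKM in TABS, against 1782 to 2255 FPKM in HA. Dmp1 and Spp1, on the list of substrates and outside these 6, rose (log2 fold change 0.82 and 0.45, limma adjusted p = 0.000999 and 0.0207). Spp1 lost its call under 5 of 20 alternatives. Sp7, the osteoblast transcription factor osterix, averaged 10.8 ± 0.177 FPKM in TABS and 15.6 ± 0.853 FPKM in HA (-0.49 ± 0.05, limma adjusted p = 0.00071). Col1a1, the main chain of type I collagen, averaged 889 ± 27.3 FPKM in TABS and 1171 ± 141 FPKM in HA (-0.39 ± 0.08, limma adjusted p = 0.0269). With Col1a2, at 673 ± 34.2 FPKM in TABS and 784 ± 66.4 FPKM in HA, it made up most of the summed FPKM of the 6. Col1a1 missed the threshold under 8 of 20 alternatives, at an adjusted p of 0.107 with no filter, 0.074 with quantile normalization, 0.0932 with the replicate block, and 0.0735, 0.0626, 0.0559, 0.0743 and 0.0693 without TABS 1, 2, 3 or 4 or HA 2. Runx2 averaged 17.3 ± 0.459 FPKM in TABS and 18.4 ± 0.703 FPKM in HA and did not pass (limma adjusted p = 0.245), except with the GC and length correction (0.0373). In bulk RNA, fewer cells of a type and less RNA per cell cannot be told apart, so the part of a changed share of osteoblast-like cells in the values of Alpl was not tested. Of 4 chondrocyte markers 2 were tested and 1 rose (Col2a1, limma adjusted p = 0.0393), against 4.49% of all tested genes. The 4 summed to between 41.1 and 43.7 FPKM in TABS, against 37.3 to 41.9 in HA. Most of this was Sox9, at 35.3 to 37.6 FPKM in TABS and 33.1 to 36.7 in HA. Sox9 overlapped between groups and did not pass (log2 fold change 0.07, limma adjusted p = 0.369). Acan stood at no more than 0.0095 FPKM and Col10a1 at no more than 0.382 FPKM in any library. Col2a1 missed the threshold under 10 of 20 alternatives. Its limma adjusted p was 0.098 with no filter, 0.0969 with the replicate block and 0.0861 with the block and the GC and length correction. It was 0.0547 to 0.102 without any 1 library other than HA 2. The adipocyte markers Adipoq, Plin1 and Lep, the macrophage markers Ptprc and Adgre1, and Acp5 of osteoclasts stood at no more than 0.0586 FPKM in any library, Cdh5 and Tek of endothelium at no more than 0.0679, Csf1r at no more than 0.136, Pecam1 at no more than 0.294, and Myod1 and Myog of muscle at 0. Fabp4 (2.61 to 3.38 FPKM) and Ctsk (104 to 124 FPKM), both known outside their marker cell types, had groups that overlapped. The muscle gene Ckm stood at 0.0906 to 0.265 FPKM in TABS and 0.417 to 0.489 in HA.

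In principal components of log2(FPKM + 1) over the tested genes, the first axis (25.9% of variance) held TABS below 0 and HA above 0. The second (17.7%) ran from 15.4 in HA 1 to 4.62, -1.32 and -11.0 in HA 2 to 4, against -6.34 to 0.280 in TABS. What lay behind that spread of the HA libraries was not tested. Totals and mitochondrial share differed slightly between groups. FPKM summed to between 304893 and 307263 in TABS, against 312629 to 317439 in HA, and transcripts of the mitochondrial genome took 10.2% to 12.2% of it in TABS and 12.1% to 14.5% in HA. Their part in the differences was not tested beyond rescaling: with mitochondrial genes left out of the total, the log2 fold change was 0.62 for Ank, 0.52 for Fam20c and -0.67 for Alpl. Over all genes 60.7% of the calls were higher, and this split moved with the scaling, to 79.3% in TPM, 71.4% without the mitochondrial total, 58.7% with quantile normalization, 54.4% with median of ratios and 51.9% with the GC and length correction.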

How the data were processed

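The table held 1 FPKM value per gene and library, made by the authors before deposit. The submitters' processing notes name fastp, STAR and DESeq2 and the build GRCm38, with neither versions nor roles. How FPKM was computed, on which annotation, and whether strand was used is left unstated in the labels and notes read here, so a gene and an antisense or overlapping neighbour may share reads. Columns were matched to samples by library name. Of 55335 identifiers, 55154 were found in GENCODE M21 (GRCm38).

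Genes with at least 1 FPKM in at least 4 libraries were fitted with limma 3.58.1 (R 4.3.3) on log2(FPKM + 1) with a variance trend, two-sided, with no block. Fold changes are TABS minus HA on that scale and are smaller than the true change at low FPKM. The working of the fit was checked on simulated data with independent errors and the spread of these libraries. Such data cannot show whether the replicates are technical or how the fit does at low FPKM. Depth was read from low values of single-exon genes, where FPKM times length piled up at multiples of 1 step. Only 26.4% to 29.3% of these values were whole multiples (tolerance 0.02), too few to turn FPKM back into reads, and a count test was left out. Promoter sequences are RefSeq's (GRCm38.p6). That table matched 7 of the 9 genes, without Slc20a2 and Smpd3, and the stretch before Fam20c is not printed because it lies in an annotated exon.

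Members and lists were chosen with earlier results of these data known. From each other list the rule named up to 4 genes past the test by smallest adjusted p and the most abundant one, with 3 nearest profiles per called member. Abcc6, Xpr1, Ppa1, Fam20a, Pkdcc, Smpd1, Smpd2, Smpd4, Chka, Chkb, the zinc carriers, genes with overlapping exons and the genes listed at 0 or near it were named after their values were seen, and Sp7, Col1a1, Runx2, Col2a1 and the other marker genes come from the marker lists. Alternatives changed the pseudocount, filter, scaling, GC and length, block, variance model and libraries. A library left out kept the same set of tested genes.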

Additional observations from a re-analysis of the deposited data

Results flagged for a closer look

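In 3 of 56 groups of 4 libraries examined among the named genes, 1 library stood far from the other 3, where chance flags about 1 in 20 groups. Nt5e stood at 5.79 FPKM in HA 4, against 4.65 to 4.72 in the other HA libraries. Pth1r stood at 0.862 FPKM in TABS 2, below the other TABS libraries at 0.933 to 0.938. Anxa5 stood at 695 FPKM in HA 3, against 604 to 608 in the other HA libraries. In each of these genes the groups still did not overlap.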

How the results depend on the processing

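Over 20 alternatives each, Ank (log2 fold change 0.55 to 0.65), Fam20c (0.44 to 0.56) and Alpl (-1.36 to -0.59) kept their direction and passed, with adjusted p no higher than 0.0139, 0.0269 and 0.0312. All 3 of the highest values came with the replicate block, alone or with the GC and length correction. Phospho1 and Slc20a1 kept their direction and did not pass in any. Slc20a2 turned to 0.0042 in TPM. Smpd3 turned to 0.0083 in TPM and 0.0021 with quantile normalization, and with 1 library left out ran from -0.0457 to 0.0281, above 0 without TABS 1 (0.014) or HA 2. The count of genes past the test, 833 (506 higher, 327 lower), became 542 (195 lower) with no filter, 230 (136 and 94) with the replicate block and 331 (170 and 161) with the block and the GC and length correction, and 915 were higher in TPM. With 1 library left out it ran from 415 to 718 (247 to 429 higher, 168 to 289 lower), more than 1.5 times below 833 without any 1 of the TABS libraries (446, 480, 415 and 488 without TABS 1 to 4), HA 2 (518) or HA 3 (506). The causes were not tested. Of 42 other named genes run, 21 had passed: 389 of their values kept direction and call, and 31, in 8 genes, lost the call (Spp1, Nt5e, Slc29a1, Fgfr1, Anxa5, Sphk1, Col1a1 and Col2a1). Of the 21 that had not passed, Runx2 and Fam20a passed with the GC and length correction, and 9 with values near 0 changed sign in some alternatives. In TPM Smpd2 was 0.0135 and Chkb 0.0229. With median of ratios Ctsk was -0.0069, Xpr1 -0.0034, Slc30a5 -0.0030 and Slc30a6 -0.0082, and with quantile normalization Slc30a5 was -0.0030 and Slc30a6 -0.0134. With the GC and length correction, with or without the block, Ppa1 was 0.0675 and Smpd4 -0.0024. With 1 library left out the log2 fold change ran for Xpr1 from -0.0129 to 0.0357, Ctsk from -0.0367 to 0.0463, Smpd2 from -0.0721 to 0.0162, Chkb from -0.0857 to 0.0508, Slc30a5 from -0.0244 to 0.0254, Slc30a6 from -0.0198 to 0.0118 and Gm4430 from -0.101 to 0.0253. Same-numbered libraries did not deviate together (Pearson r across genes from -0.10 to 0.10, with 2 of 8 libraries closest to their own number). A low correlation cannot show that same-numbered samples were handled apart, so whether the numbers pair the samples was not settled. By implied fragments, depth was lowest for Enpp1, then Alpl, Phex, Phospho1 and Smpd3.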

Other observations

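Pcyt1a, which makes CDP-choline from phosphocholine and was singled out after its values were seen, stood at 9.12 FPKM in TABS 1 and at 3.3, 2.94 and 2.70 FPKM in TABS 2 to 4, against 2.48 to 2.87 FPKM in HA (log2 fold change 0.46 ± 0.28, SE, limma adjusted p = 0.356). Its exons share 567 bases with Slc51a. Smim19, which shares 95 exon bases with Slc20a2, stood at 7.42 and 7.73 FPKM in TABS 2 and TABS 3 and at 16.6 FPKM in both TABS 1 and TABS 4, against 14.9 to 17.0 FPKM in HA, while Slc20a2 differed by little between the same libraries. Mepe, a matrix phosphoprotein whose fragments Phex cleaves, lay under the filter at 0.0483 to 0.245 FPKM in TABS and 0.289 to 0.458 FPKM in HA.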
